A study of Homo sapiens with 4 samples.

Results

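The 6 genes IGF2BP1, IGF2BP2, IGF2BP3, LIN28B, HMGA1 and HMGA2 were picked by gene name from the 60544 genes of a count table, as a family of m6A readers together with oncofetal genes that the microRNA let-7 represses. The table covers PC3, an established human prostate cancer cell line, with 2 libraries labelled shNC and 2 labelled sh812. The series compares METTL3 knockdown with control, and since no sample label names METTL3, the sh812 libraries were taken for the knockdown. METTL3 is the enzyme that places m6A (N6-methyladenosine), a methyl group on adenosines within messenger RNA. All 4 libraries were of poly(A) RNA from cells grown in RPMI-1640 with fetal bovine serum. The labels give 1 cell line and 1 hairpin name per arm, no time after knockdown, and no statement that the replicates were separate cultures. The p-values therefore measure the spread between these libraries, which may be technical.

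The IGF2BP proteins are RNA-binding proteins that bind m6A-bearing transcripts and are known for prolonging their lifetime. IGF2BP1 and IGF2BP3 are oncofetal, that is abundant in the embryo, low in most adult tissues and often raised again in tumours. LIN28B binds the precursors of let-7 and blocks their processing, and let-7 in turn represses LIN28B, the IGF2BP genes, HMGA1 and HMGA2. HMGA1 and HMGA2 are small chromatin proteins that bind the minor groove of AT-rich DNA.

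The let-7 sequences are shown because the label of the group rests on them. RefSeq (GRCh38.p14) lists 12 let-7 and miR-98 hairpin genes that give 9 mature 5p sequences, and all 9 carry the same seed, bases 2 to 8, in capitals here. let-7a is encoded by 3 of the genes, and the others shown differ from it outside the seed.
let-7a-5p: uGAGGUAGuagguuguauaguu
let-7d-5p: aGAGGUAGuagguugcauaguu
let-7e-5p: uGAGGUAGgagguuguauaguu
miR-98-5p: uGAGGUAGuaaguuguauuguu

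The 3′ UTRs of the 6 genes were searched on the transcript strand for CTACCTC, the 7 bases complementary to that seed, in 1 GENCODE 29 transcript per gene. IGF2BP1, LIN28B and HMGA2 held 4 matches each, in 3′ UTRs of 6206, 4549 and 3003 bases. IGF2BP2, IGF2BP3 and HMGA1 held 1 match each, in 1792, 2153 and 1346 bases. Of 13088 other tested genes with a 3′ UTR, 9.93% held at least 1 match and 8 genes (0.0611%) held 4 or more. The group was assembled as known let-7 targets, so the matches describe it and are no finding, and a match of letters does not show binding. The matches of the 5 genes that were tested are shown as 22 bases each, with the match in capitals and the last base lying opposite base 1 of the microRNA. For IGF2BP1 the first of its 4 matches is shown.
HMGA2 site 1, chr12:65963299-65963320, plus strand: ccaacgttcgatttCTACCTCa
HMGA2 site 2, chr12:65964534-65964555, plus strand: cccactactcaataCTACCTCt
HMGA2 site 3, chr12:65964946-65964967, plus strand: tgacttgcaaagacCTACCTCc
HMGA2 site 4, chr12:65965799-65965820, plus strand: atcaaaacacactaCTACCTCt
HMGA1, chr6:34245830-34245851, plus strand: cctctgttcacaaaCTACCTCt
IGF2BP1 site 1, chr17:49051062-49051083, plus strand: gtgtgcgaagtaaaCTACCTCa
IGF2BP2, chr3:185644220-185644241, minus strand: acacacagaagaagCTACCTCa
IGF2BP3, chr7:23311795-23311816, minus strand: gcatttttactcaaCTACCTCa
An A after the match, which Argonaute is known to favour, followed 3 of 4 matches in IGF2BP1, 2 of 4 in LIN28B and 1 of 4 in HMGA2. It also followed the single matches of IGF2BP2 and IGF2BP3, but not that of HMGA1.

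The libraries held 31450648 to 37041330 counts. METTL3 had 1682 and 1379 counts in shNC and 269 and 313 in sh812, or 44.35, 43.61, 7.66 and 8.75 CPM (counts scaled to a common library size), so both sh812 libraries lay far below both controls. Its log2 fold change was -2.42 (SE 0.11, adjusted p = 5.54e-14 by the quasi-likelihood test of edgeR). Of 16802 genes that passed the low-count filter, 10.8% had an adjusted p under 0.05, with 5.43% higher and 5.42% lower in sh812. The epithelial markers KRT8, KRT18 and EPCAM were at 69.3 CPM or more in every library, and the prostate luminal markers KLK2 and KLK3 had 0 counts in all 4. Of the markers of other cell types, CD3E had 0 counts and VWF at most 2, PTPRC and DCN stayed under 1 CPM, and PECAM1 (23.7 to 38.5 CPM) and COL1A1 (29.3 to 39.4 CPM) were expressed. Some of these markers moved with the groups: EPCAM, KRT18 and PECAM1 were higher in sh812, by 0.45, 0.30 and 0.59 on the log2 scale (edgeR adjusted p = 0.000128, 0.00793 and 0.000222). Their part in the results below was not tested. In bulk RNA, fewer cells that express a gene and less RNA per cell cannot be told apart.

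Of the 6 genes, 5 passed the low-count filter and 2 were called at an adjusted p under 0.05, IGF2BP2 as lower and HMGA1 as higher, against the 10.8% called among all tested genes. Both changes were small, with fitted levels of 0.838 and 1.15 times the control. In 4 of the 5 the sh812 libraries lay on 1 side of both shNC libraries, an arrangement found in 53.6% of tested genes. The exception was HMGA2. LIN28B was barely detected. The plot of levels by library shows all 24 values.

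**Figure D1:**
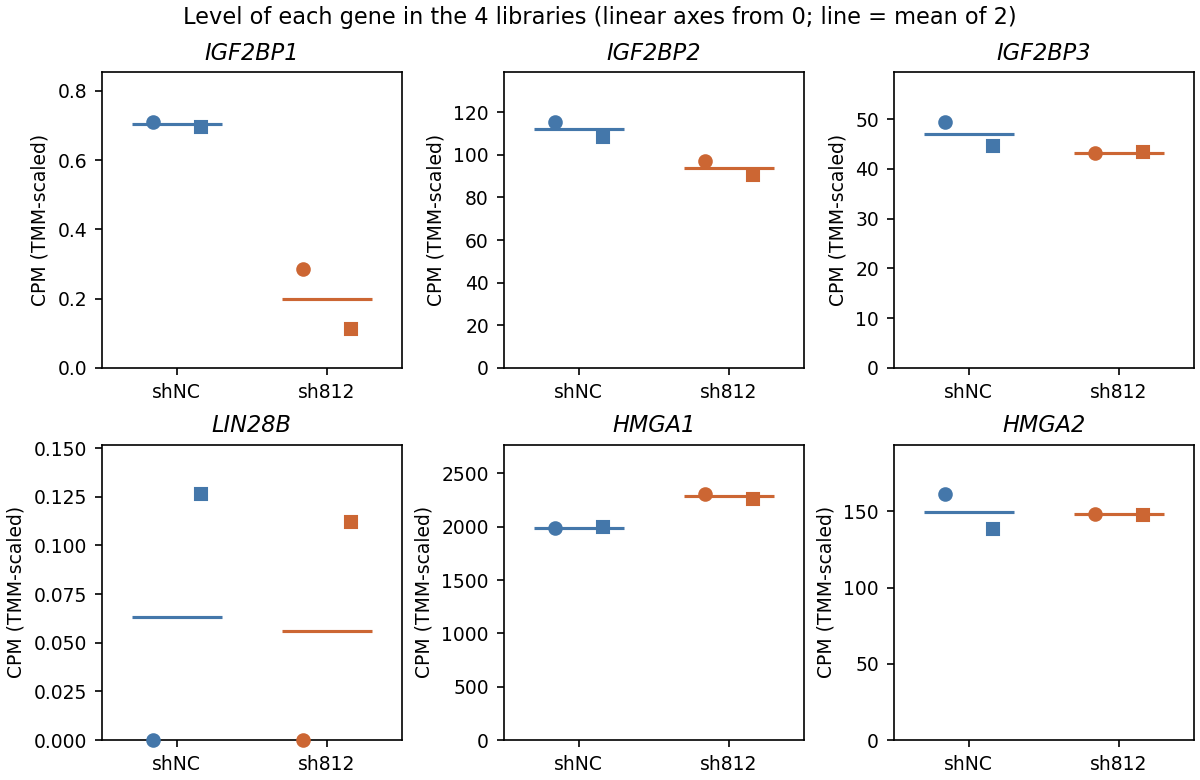
Level of each of the 6 genes in CPM (y axis, linear from 0, with its own scale per gene) in the 2 shNC and the 2 sh812 libraries (circles, replicate 1; squares, replicate 2; line, mean of 2). IGF2BP2 is lower and HMGA1 higher in both sh812 libraries, HMGA2 overlaps, and LIN28B has 0 or 4 counts.

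Among the m6A readers, IGF2BP2 (ENSG00000073792) was the most abundant. Its position in GENCODE 29 (GRCh38) is chromosome 3, 185643739 to 185825056, minus strand. Its level was 115.6 and 108.2 CPM in the shNC libraries and 97.2 and 90.34 CPM in the sh812 libraries. Both sh812 values lay below both controls, and the gap between the groups, from 97.2 to 108.2 CPM, was wider than the gap between the libraries of either group. The means were 111.9 ± 5.19 and 93.8 ± 4.85 CPM (SD, n = 2), a log2 change of -0.26 (SE 0.067, 95% interval -0.39 to -0.12, edgeR adjusted p = 0.0144). Its value without sh812 replicate 1 was -0.31 (edgeR adjusted p = 0.0702) and without sh812 replicate 2 -0.20 (edgeR adjusted p = 0.289), so the call was lost when either knockdown library was left out.

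The antisense gene IGF2BP2-AS1 lies within IGF2BP2 on the opposite strand, and the annotated exons of the pair share no base. It had 206 and 163 counts in shNC and 253 and 183 in sh812, with a log2 change of 0.22 (SE 0.18, edgeR adjusted p = 0.516). Whether the counting used strand is not given in the sources used here.

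IGF2BP3 (ENSG00000136231, chromosome 7, 23310209 to 23470467, minus strand), a paralog used as a tumour marker, was at 49.5 and 44.6 CPM in shNC and at 43.2 and 43.3 CPM in sh812. The sh812 libraries were nearly equal and just below shNC replicate 2, while shNC replicate 1 stood higher. The log2 fold change was -0.12 (SE 0.081, 95% interval -0.29 to 0.045, edgeR adjusted p = 0.377), so a fall to 0.818 times the control and a small rise both lie inside the interval. Leaving out shNC replicate 1 gave -0.044, and leaving out shNC replicate 2 gave -0.19. Annotated exons of IGF2BP3 overlap those of MALSU1, a mitochondrial ribosome assembly gene on the opposite strand, over 1521 bases. MALSU1 was at 38.7 and 39.9 CPM in shNC and 44.0 and 44.4 CPM in sh812, with a log2 fold change of 0.17 (edgeR adjusted p = 0.188).

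IGF2BP1 (ENSG00000159217, chromosome 17, 48997412 to 49055650, plus strand), which is known for stabilising the MYC transcript, was close to the detection limit. It had 27 and 22 counts in shNC and 10 and 4 counts in sh812, that is 0.712, 0.696, 0.285 and 0.112 CPM. Each sh812 library was below both controls, and the sh812 values differed from each other by more than the shNC values did. The fitted log2 fold change was -1.81 (SE 0.67, 95% interval -3.19 to -0.44), and the adjusted p of 0.0811 in edgeR did not pass the threshold. Leaving out sh812 replicate 1 gave -2.62, and leaving out sh812 replicate 2 gave -1.30. At this level IGF2BP1 passed the low-count filter through its shNC libraries. Such a filter favours genes that are higher in 1 group, so the direction seen is not independent of it. DESeq2 gave IGF2BP1 no adjusted p because of its own filter on low counts.

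The make-up of the family was compared per base of exon, since the 3 genes differ in length. Per kilobase of the union of annotated exons, the mean shNC levels were 23.6 for IGF2BP2, 5.53 for IGF2BP3 and 0.0773 for IGF2BP1, in CPM per kb. IGF2BP2 made up 80.6% and 81.1% of the summed level in shNC and 80.1% and 78.9% in sh812. IGF2BP3 made up 19.2% and 18.6% in shNC and 19.8% and 21.1% in sh812, and IGF2BP1 0.258% and 0.271% in shNC and 0.122% and 0.0507% in sh812. The shares of the groups did not overlap for any of the 3, but 2 libraries against 2 cannot give a two-sided p under 0.333 in an exact permutation test, which is the value obtained for each. With the longest coding transcript as the length, the IGF2BP2 share was 73.1% in shNC and 71.4% in sh812, so the order of the genes was kept while the level of the share was not.

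**Figure D2:**
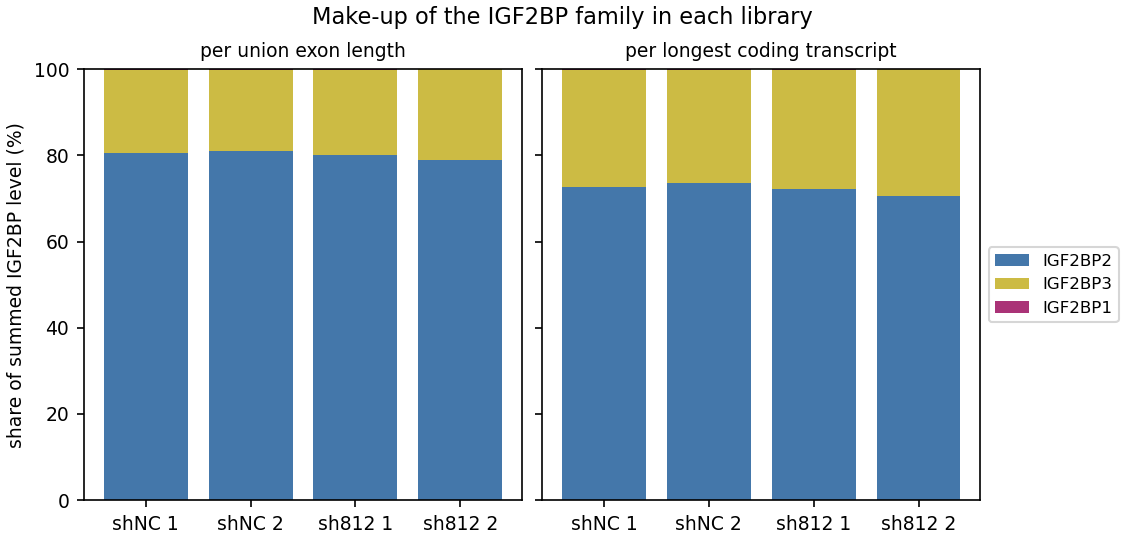
Share of IGF2BP2, IGF2BP3 and IGF2BP1 in their summed level per base (y axis, percent) in each library, with union exon length (left) or the longest coding transcript (right) as the length. IGF2BP2 takes most of the sum in all 4 libraries, and IGF2BP1, at or under 0.271% on the left, is too thin to see.

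LIN28B (ENSG00000187772, chromosome 6, 104936616 to 105083332, plus strand) had 0 and 4 counts in shNC and 0 and 4 counts in sh812. It did not pass the low-count filter, and no fold is given. A count of 0 allows up to 3 counts, which corresponds to 0.0791 CPM in shNC replicate 1 and 0.0855 CPM in sh812 replicate 1. These limits cover counting error only. Its paralog LIN28A had 0 counts in all 4 libraries, as did LIN28B-AS1. At this depth no difference in LIN28B was detectable.

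HMGA1 (ENSG00000137309, chromosome 6, 34236873 to 34246231, plus strand) ranked 26 of 16802 tested genes by mean CPM, and 21 of 16627 by level per kb of exon. It was at 1988 and 1996 CPM in shNC and at 2309 and 2263 CPM in sh812. The shNC libraries were nearly equal and both sh812 libraries stood well above them, so the groups did not overlap. The means were 1992 ± 6.09 and 2286 ± 32.1 CPM (SD, n = 2), a log2 change of 0.20 (SE 0.053, 95% interval 0.090 to 0.31, edgeR adjusted p = 0.0158). It was 0.19 without sh812 replicate 1 (edgeR adjusted p = 0.308) and 0.21 without sh812 replicate 2 (edgeR adjusted p = 0.188).

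The HMGA1 call also depended on a trend with transcript length. Across 12254 genes, the Spearman correlation of union exon length with the difference between groups was -0.30, and it was -0.30 for shNC replicate 2 against replicate 1 and 0.031 for sh812 replicate 2 against replicate 1, so short transcripts stood higher in sh812 and a like trend lay between the controls. HMGA1, with 2327 bases of exon, is short, and the trend of length and GC content at its values was 0.071 higher in sh812 than in shNC on the log2 scale. With that trend removed from each library, the log2 fold change of HMGA1 was 0.13 (SE 0.051, edgeR adjusted p = 0.118) and the call was lost. IGF2BP2 kept its call under the same correction, at -0.24 (SE 0.061, edgeR adjusted p = 0.0136).

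HMGA1 has 8 pseudogenes in the table under its own name. Together they held 64 and 30 counts in shNC and 70 and 60 in sh812, between 0.0475% and 0.0864% of the HMGA1 count of the same library. Reads that fit both HMGA1 and a near-identical copy could have been dropped or split by the counting, in a way that the table does not show.

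HMGA2 (ENSG00000149948, chromosome 12, 65824131 to 65966295, plus strand), the best-known let-7 target of the pair, was at 161.6 and 138.3 CPM in shNC and at 148.1 and 148.0 CPM in sh812. Both sh812 values fell between the control values, so the groups overlapped. The log2 fold change was -0.019 (SE 0.068, 95% interval -0.16 to 0.12, edgeR adjusted p = 0.904), which leaves room for a level between 0.896 and 1.09 times the control. Its sign depended on the controls and on the length trend. The value was 0.098 without shNC replicate 1, -0.12 without shNC replicate 2, and 0.083 with the trend of length and GC content removed (edgeR adjusted p = 0.388). The trend stood at 0.12 in shNC replicate 1 for the length of HMGA2, the largest value among these genes and libraries.

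HMGA2 shares exon bases with 1 antisense gene. HMGA2-AS1 overlaps 384 exon bases and had 81 and 87 counts in shNC and 71 and 75 in sh812 (log2 fold change -0.24, edgeR adjusted p = 0.659). RPSAP52, a transcribed pseudogene on the opposite strand with no shared exon base, had 200 and 148 counts in shNC and 186 and 196 in sh812 (log2 fold change 0.11, edgeR adjusted p = 0.764).

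Within the HMGA pair, HMGA2 made up 1.21% and 1.04% of the summed level per kb in shNC and 0.960% and 0.978% in sh812. With the longest coding transcript as the length, the mean share was 1.97% in shNC and 1.70% in sh812, and without length scaling 7.00% and 6.08%. In each scaling the shares did not overlap, with an exact permutation p of 0.333, the smallest that 2 against 2 allows. None of these scalings takes out the trend of length and GC content in each library. That trend, sh812 minus shNC on the log2 scale, was 0.071 for HMGA1 and -0.098 for HMGA2. With it removed, the log2 fold changes were 0.13 for HMGA1 and 0.083 for HMGA2, against 0.20 and -0.019 in the main fit. The shares were not computed with the trend removed. The log2 ratio of HMGA1 to HMGA2 counts was 3.62 and 3.85 in shNC and 3.96 and 3.94 in sh812. The ratio was higher in both sh812 libraries, but shNC replicate 2 lay nearer to them than to shNC replicate 1.

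**Figure D3:**
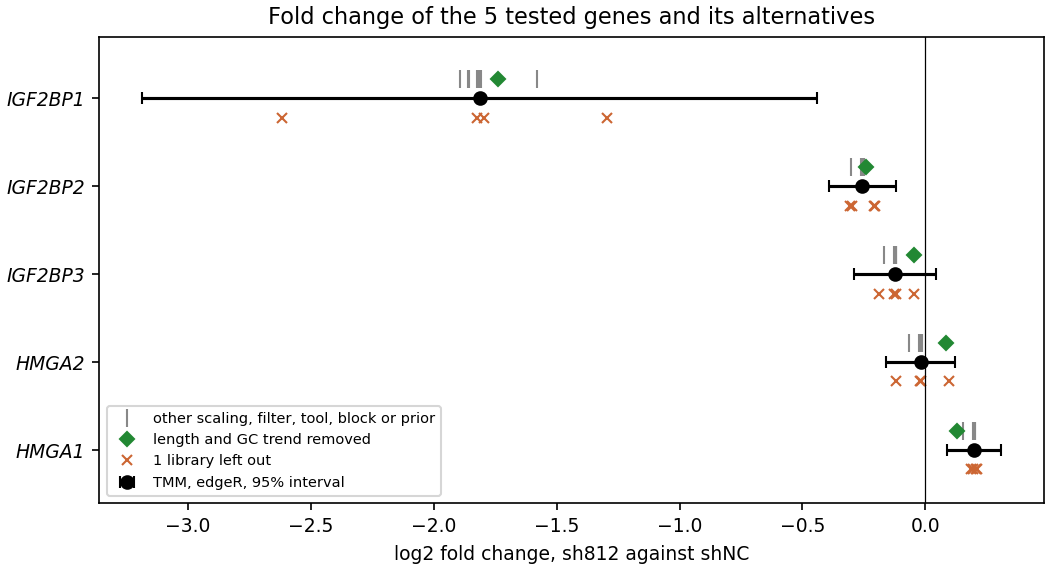
Log2 fold change of sh812 against shNC (x axis) for the 5 tested genes, with its 95% interval (black), the values under other scalings, filters, tools, the replicate block and another prior count (grey ticks), with the length and GC trend removed (green) and with 1 library left out (orange crosses). IGF2BP2 stays below 0 and HMGA1 above 0 in every setting drawn, and HMGA2 falls on both sides.

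The order of the 6 genes by level per kb of union exon in shNC was HMGA1 (856), IGF2BP2 (23.6), HMGA2 (9.74), IGF2BP3 (5.53), IGF2BP1 (0.0773) and LIN28B (0.0105), in CPM per kb. In sh812 the same order held, at 982, 19.8, 9.62, 5.08, 0.0218 and 0.00931. The first 4 kept these places in every library. IGF2BP1 and LIN28B did not differ beyond counting error in sh812 replicate 2, where each had 4 counts. Levels per kb rest on the length taken, since HMGA2 has 15403 bases of exon over all its annotated transcripts and 4473 in the transcript used for the 3′ UTR. Without length scaling, HMGA2 stood above IGF2BP2 in shNC, with means of 150 and 111.9 CPM. Per kb of the longest coding transcript it stood below, at 18.5 against 30.3, so the order of these genes depended on the length used.

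Of the tested genes with 4 matches, IGF2BP1 had a log2 fold change of -1.81 and HMGA2 one of -0.019. Those with 1 match had -0.26 (IGF2BP2), -0.12 (IGF2BP3) and 0.20 (HMGA1). Among other tested genes the median log2 fold change was -0.0049 for the 11788 with no match, -0.031 for the 1151 with 1, -0.053 for the 124 with 2 and -0.024 for the 25 with 3 or more. Calls were 768 higher and 756 lower with no match, 59 higher and 101 lower with 1, 6 higher and 11 lower with 2, and 0 higher and 1 lower with 3 or more. Genes with 1 or 2 matches thus had more lower than higher calls, a difference between classes that was not tested. The 3′ UTR grew with the number of matches, from a median of 983 to 6015 bases, so match number and length move together, and the part of length in these counts was not tested.

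As a second feature, the pentamer GGACT, a common form of the m6A consensus, was counted on the transcript strand. It occurred 9 times in IGF2BP1, 5 times in IGF2BP2 and HMGA2, and 2 times in IGF2BP3, LIN28B and HMGA1. Per kb of transcript this was 1.36 in IGF2BP2, 1.12 in HMGA2, 1.09 in IGF2BP1, 0.926 in HMGA1, 0.471 in IGF2BP3 and 0.363 in LIN28B, against a median of 0.932 over other tested genes, of which 91.7% hold the pentamer. Methylation itself was not measured here.

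Genes that make, trim or use let-7 were taken next. Of 21 listed genes, 20 were tested, 0 were called higher and 1 lower, or 5% beside the 10.8% of all tested genes. The median log2 fold change was -0.041 beside -0.0056 for all tested genes. Leaving out shNC replicate 1 gave 0.0034, and leaving out shNC replicate 2 gave -0.10. The called gene was TNRC6C, a scaffold of microRNA silencing complexes, at 8.56 ± 0.387 CPM (SD, n = 2) in shNC and 5.21 ± 0.689 CPM in sh812, with a log2 change of -0.72 (SE 0.16, edgeR adjusted p = 0.00528). DICER1, which cuts let-7 precursors and is itself a let-7 target, had a value of 0.097 (SE 0.088, edgeR adjusted p = 0.55). The terminal uridylyltransferase genes TUT4 and TUT7, which tag let-7 precursors bound by LIN28 proteins, had values of -0.21 (edgeR adjusted p = 0.163) and -0.037 (edgeR adjusted p = 0.865). TRIM71, a developmental let-7 target, had 34 and 16 counts in shNC and 6 and 8 in sh812, a log2 change of -1.82 (SE 0.66, edgeR adjusted p = 0.0763). Like IGF2BP1, it passed the low-count filter through its shNC libraries, where it was high.

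The mature microRNAs were not measured, since poly(A) libraries of fragmented RNA do not capture them. The 12 let-7 and miR-98 hairpin genes had 4, 4, 2 and 2 counts in all in the 4 libraries. Of 8 listed host transcripts 6 were in the table under these names and 5 were tested, with 0 called and a median of 0.0070. MIR100HG, which carries let-7a-2, was at 66.0 ± 5.98 CPM (SD, n = 2) in shNC and 66.4 ± 2.84 CPM in sh812. MIRLET7BHG, which carries let-7a-3 and let-7b, had 120 and 102 counts in shNC and 146 and 123 in sh812 (log2 fold change 0.25, edgeR adjusted p = 0.536). MIRLET7A1HG had 44 and 22 counts in shNC and 31 and 26 in sh812 (log2 fold change -0.22, edgeR adjusted p = 0.835). HUWE1 and WDR82, which host miR-98 with let-7f-2 and let-7g in their introns, had log2 fold changes of -0.14 and 0.076 (edgeR adjusted p = 0.182 and 0.449, respectively). MIR99AHG, the host of let-7c, had 6 to 20 counts and was not tested.

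Of 26 other reported let-7 targets, 25 were tested, 4 were called higher and 1 lower, that is 20% against 10.8% of all tested genes. The median log2 fold change was 0.060. It was 0.0097 without sh812 replicate 2, 0.016 with scaling to library size and 0.12 under the length and GC correction. MYC, a growth-promoting transcription factor, was at 167 ± 0.431 CPM (SD, n = 2) in shNC and 220 ± 4.43 CPM in sh812, with a log2 change of 0.40 (SE 0.059, edgeR adjusted p = 7.70e-05). The kinase gene CDK6 had a value of 0.38 (edgeR adjusted p = 0.000713), the phosphatase gene CDC25A one of 0.30 (edgeR adjusted p = 0.00882) and the ubiquitin-conjugating enzyme gene CDC34 one of 0.24 (edgeR adjusted p = 0.0405). THBS1, a secreted matrix protein gene, was the one called lower, at -0.25 (edgeR adjusted p = 0.0059). Of the 25 genes on this list with a 3′ UTR in the chosen transcript, 16 held a seed match. Among the called genes, CDC25A held 2 matches and CDC34 held 1, while CDK6 and THBS1 held 0. The chosen MYC transcript had a 3′ UTR of 0 bases, so MYC was not searched and is not among the 25.

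Transcripts reported to be bound or stabilised by IGF2BP proteins were looked at in the same way. Of 19 listed, 14 were tested, 3 were called higher and 0 lower, or 21.4% beside 10.8% of all tested genes. The median was 0.073, and 0.029 with scaling to library size. The called genes were MYC, which is also on the let-7 list, ACTB at 0.22 (edgeR adjusted p = 0.00847), and FSCN1, an actin-bundling protein gene, at 0.22 (edgeR adjusted p = 0.0197). CD44, a hyaluronan receptor and known IGF2BP3 client, had a value of -0.14 (edgeR adjusted p = 0.115). IGF2, which gave the family its name, had 7 and 16 counts in shNC and 0 and 6 in sh812 and was not tested. The imprinted transcript H19 had 0 counts in all 4 libraries.

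Of 9 listed partners of the IGF2BP proteins in RNA granules, 8 were tested, 2 were called higher and 1 lower, or 37.5% beside 10.8% of all tested genes. YBX1 and HNRNPU rose, with log2 fold changes of 0.23 and 0.18 (edgeR adjusted p = 0.00924 and 0.0339, respectively). FMR1, another RNA-binding protein of granules, fell by 0.30 on the log2 scale (edgeR adjusted p = 0.0241). ELAVL1, which is known to act with IGF2BP proteins in stabilising transcripts, had a value of 0.15 (edgeR adjusted p = 0.0974), and the list median was 0.14. MATR3 is in the table under a pair of overlapping identifiers. The one taken for the list had 0 counts in all 4 libraries and was not tested. The other had 22 and 21 counts in shNC and 23 and 18 in sh812, and was not counted in the list.

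Of 12 other oncofetal genes, 5 were tested and 0 were called, where 10.8% of all tested genes were. Of those tested, 4 were lower and 1 higher in sh812, with a median log2 fold change of -0.59. The range was from -1.82 (TRIM71) to 0.058 (TPBG). TRIM71 passed the low-count filter through its shNC libraries, so its direction is not independent of that filter. With a filter at a mean CPM of at least 1, which TRIM71 does not pass, the median was -0.32. AFP had 2 to 10 counts and was not tested, and GPC3 and DLK1 had 0 counts in all 4 libraries. SALL4, a fetal zinc finger factor, had 63 and 50 counts in shNC and 45 and 30 in sh812 (log2 fold change -0.61, edgeR adjusted p = 0.331). PLAG1 had 52 and 48 counts in shNC and 28 and 40 in sh812 (log2 fold change -0.59, edgeR adjusted p = 0.382). Beside these low levels, the trophoblast glycoprotein gene TPBG was at 105 ± 4.69 CPM (SD, n = 2) in shNC and 109 ± 2.12 CPM in sh812.

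For comparison with HMGA1 and HMGA2, the other high mobility group genes of the HMGB, HMGN and HMG20 families were taken. Of 10 tested, 1 was called higher and 0 lower, a share of 10% that is near the 10.8% of all tested genes, with a median of 0.13 and a range from 0.014 to 0.20. The called gene was HMGN2, a nucleosome-binding protein gene, at 0.18 (SE 0.056, edgeR adjusted p = 0.0367). In the main fit HMGA1, at 0.20, lay at the upper end of that range, and HMGA2, at -0.019, lay below it. Scaled to library size without TMM, the median of the 10 was 0.087, HMGA1 was at 0.15 and HMGA2 at -0.065. After correction for length and GC content, HMGA1 was at 0.13, HMGA2 at 0.083 and the median of the 10 at 0.11. Both HMGA genes then lay nearer to the median than in the main fit. Their distance from the other families thus depended on this correction.

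**Figure D4:**
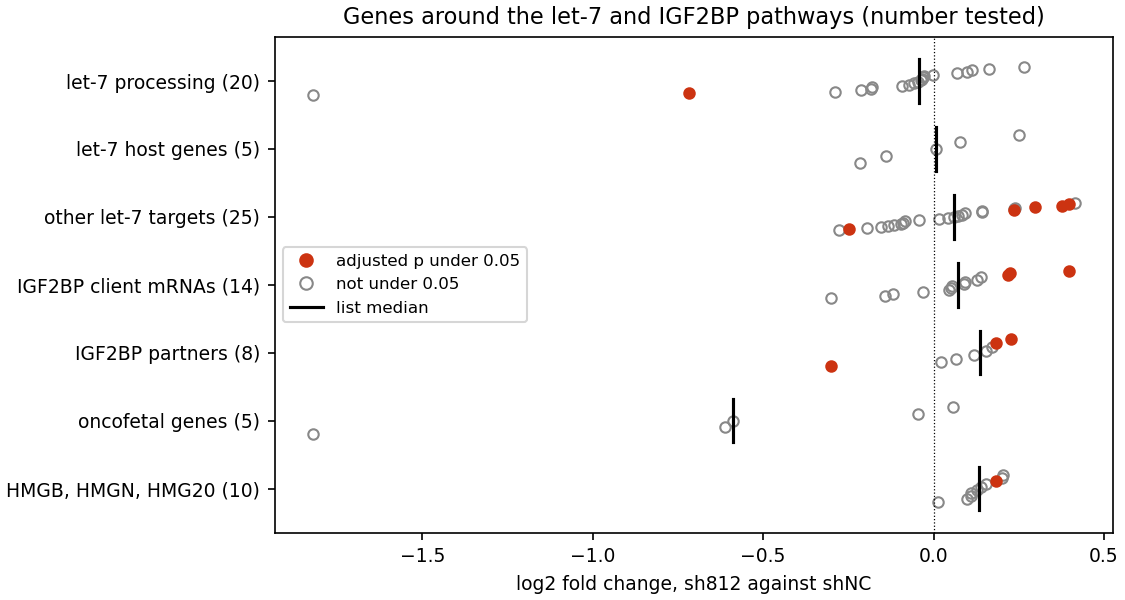
Log2 fold change of sh812 against shNC (x axis) for the tested genes of each list around the let-7 and IGF2BP pathways (number tested in brackets), with genes called at an adjusted p under 0.05 in red and the list median as a black line. The calls among let-7 targets are 4 higher and 1 lower, and the single call among let-7 processing genes is TNRC6C.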

How the data were processed

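Poly(A) RNA of PC3 cells was measured in 4 libraries, with paired reads of 150 bases per the labels. The authors deposited raw counts per gene. The submitters' processing notes name fastp, STAR 2.7.1a, featureCounts, DESeq2 and hg38; annotation release and strand setting are not given in the sources used here. From the counts, edgeR 4.0.16 in R 4.3.3 was run on all 4 libraries without covariates (filterByExpr, TMM, glmQLFit, glmQLFTest, prior count 0.125). P-values were adjusted over 16802 genes by Benjamini-Hochberg, and a gene was called below 0.05. SE is the log2 fold change over the square root of the quasi-likelihood F. CPM uses TMM-adjusted library sizes. Replicates differed beyond sampling noise (chi-square per gene 8.43 in shNC, 4.51 in sh812).

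Gene models are from GENCODE 29 (GRCh38), found by Ensembl identifier for 16627 tested genes. The 3′ UTR is from the complete coding transcript of best APPRIS rank, then greatest length. MIRLET7DHG and MIRLET7IHG were not matched by name.

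The 6 genes and the lists, written from general knowledge, were chosen with earlier results of these data known. The naming rule covers the 6 genes, METTL3, their pseudogenes and antisense genes, up to 4 called genes per list and direction, LIN28A, TRIM71, H19, IGF2, DICER1, MYC, the let-7 hosts, the marker genes and the 2 nearest profiles per gene. All others were named after their values were seen. Alternatives were RLE and upper quartile factors, library size alone, no filter or a mean CPM of at least 1, DESeq2 1.42.0, limma-voom (limma 3.58.1), the replicate block, a prior count of 2, a lowess length and GC trend (span 0.3) and each library left out. Tested on simulated data for sh812 against shNC (16415 genes), the fit called 72.7% of genes given a log2 change of 1 and 59.2% of genes given 0.5, and 17 of its 147 calls were false.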

Additional observations from a re-analysis of the deposited data

How the results depend on the processing

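Over the 10 alternatives that kept all libraries, IGF2BP2 and METTL3 kept their direction and their call, and IGF2BP1 and IGF2BP3 stayed without one wherever a test was given. The log2 fold change of IGF2BP2 ran from -0.30 to -0.24 in these (edgeR, DESeq2 and limma-voom adjusted p-values from 0.00512 to 0.0183). HMGA1 lost its call when the length and GC trend was taken out (0.13), and HMGA2 changed sign there (0.083); the other 9 alternatives kept the direction and side of the threshold of both. The cause was not tested. Leaving out 1 library puts 1 sample in a group, which is then assumed to vary like the others. The log2 fold change then ran from -0.31 to -0.20 for IGF2BP2, from 0.19 to 0.21 for HMGA1 and from -0.12 to 0.098 for HMGA2, and the number of genes called from 587 (without sh812 replicate 1) to 3252 (without shNC replicate 2) against 1822. Library size alone gave 561 genes higher and 1328 lower, against 912 and 910.

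Replicate numbers 1 and 2 recur in both groups, but no label ties a number to a day or batch. Across genes, the deviations of libraries with the same number were correlated at 0.016 (Pearson). With the replicate block, 2001 genes were called, IGF2BP1 was at -1.86, IGF2BP2 at -0.26, IGF2BP3 at -0.12, HMGA1 at 0.20, HMGA2 at -0.015 and METTL3 at -2.42, and none of these changed its call. Among list medians, the let-7 processing genes moved to 0.0059 under the length and GC correction, and the host genes ran from -0.16 to 0.10 over left-out libraries. The let-7 target median (0.060) was 0.12 under that correction and 0.016 with library size alone, and the IGF2BP client median (0.073) was 0.029 with library size alone. Depth limits IGF2BP1 and LIN28B, which had 4 to 27 and 0 to 4 counts.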

Other observations

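The genes whose levels over the 4 libraries lay nearest to each of the 4 well-measured genes were taken from 10730 genes with a mean of at least 5 CPM, by the root mean square distance of log2 CPM centred over the libraries. With 4 points many genes come close, and a small distance is a description only. IGF2BP2 was nearest to CRIM1, a transmembrane protein gene (distance 0.00247 on the log2 scale, log2 fold change -0.26), and to HELZ2 (0.00488, log2 fold change -0.25). IGF2BP3 was nearest to TRAF6, a signalling adaptor gene (0.00803, log2 fold change -0.13), and to GATD1 (0.00903, log2 fold change -0.13). HMGA1 was nearest to KIF20A, a mitotic kinesin gene (0.00399, log2 fold change 0.20), and to SRSF9, a splicing factor gene (0.00457, log2 fold change 0.20). HMGA2 was nearest to INO80, a chromatin remodeller gene (0.00414, log2 fold change -0.026), and to GEN1, a DNA resolvase gene (0.00423, log2 fold change -0.016).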
